A study of Mus musculus with 12 samples.

Results

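Autophagy and lysosome genes were followed through 4 conditions in RAW264.7 cells, an established mouse macrophage line transformed by a leukaemia virus. The set holds 49 genes chosen by name and function, 28 that build or regulate the autophagosome and 21 that code for parts of the lysosome, out of 23962 genes with a symbol on the array. Members were matched to the gene names of the array or to their older aliases, and the brightest probe stood for each gene. All 49 members were on the array, with 67 probes between them. Of these genes 48 passed the filter on dim probes, each well above background on all 12 arrays. The exception was Optn, which codes for the cargo receptor optineurin and was not well above background on any array, so it was not tested.

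Autophagy wraps part of the cytoplasm in a double membrane, the autophagosome, and delivers it to the lysosome for digestion. The ULK kinase complex starts the process, the Beclin 1 lipid kinase complex marks the site, and ATG9 and ATG2 proteins supply membrane lipid. A conjugation system then attaches LC3 and GABARAP proteins to the membrane, where cargo receptors bind. The lysosome is kept acidic by the V-ATPase proton pump and holds hydrolases that break down cargo. In macrophages the same organelle digests engulfed microbes and dead cells, and the transcription factors TFEB, TFE3 and MITF drive many of its genes.

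RNA of the cells was hybridised to 12 one-colour arrays, 3 for each group. The groups were NS (no added NaCl, no LPS), HS (40 mM added NaCl), NS+LPS (10 ng/ml LPS) and HS+LPS (both agents), and all lasted 24 h. LPS, lipopolysaccharide, is a bacterial cell wall component that activates macrophages. The labels leave NS and HS unexplained, and with the series title as a guide HS stands for high salt here and NS for medium without the added NaCl. Whether replicates came from separate cultures is not labelled, so the p-values speak only for the scatter of these samples, and that scatter may be technical.

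Levels below are scaled signals, linear values in which 1 is the 75th percentile of the array. They compare arrays for 1 probe and say nothing of 1 gene against another. The HS+LPS arrays had the lowest percentile, 428 ± 15.3, against 628 ± 6.84 for NS+LPS, 634 ± 21.5 for HS and 725 ± 74 for NS (mean ± SD, 3 arrays each). NS, HS and the first 2 NS+LPS arrays lay on one slide, NS+LPS replicate 3 on another, and HS+LPS on a slide of its own that was scanned on a later day. In every comparison that uses HS+LPS, slide and scan day therefore cannot be told apart from the treatment. All 6 macrophage markers were well above background in every group, but they moved with the treatments. With salt alone 1 rose and 1 fell, and with salt under LPS 3 rose and 2 fell. Adgre1, a surface marker of mature macrophages, fell in both (-0.42 and -0.51). Fcgr1, an antibody receptor, went from 29.3, 28 and 27.7 in NS+LPS to 10.8, 10.8 and 10.2 in HS+LPS. The 3 that rose under LPS were Csf1r, Itgam and Lyz2. Their mean signals were 277, 9.93 and 109 in NS+LPS, and 421, 11.8 and 153 in HS+LPS. Of 12 markers of other cell types 3 passed the filter, Cd3e, Cd79b and Col1a2. The list summed to between 1.39 and 1.93 on all arrays except NS+LPS replicate 1, at 3.16, where Cd79b stood at 1.56 against 0.0815 and 0.0753 on its replicates. The part of these shifts in the results was not tested. In an RNA extract fewer cells and less RNA per cell cannot be told apart.

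Salt alone lowered more members than it raised. Of 27 tested autophagy genes 10 fell and 6 rose, and of 21 lysosome genes 14 fell and 1, Lamp1, rose. The threshold was an adjusted p of 0.05 in limma's moderated test, and genes below it are spoken of as called. In HS against NS 37% of all 13768 genes tested were called (18.2% higher and 18.9% lower). The median log2 difference was -0.09 in the autophagy genes, -0.21 in the lysosome genes and 0.017 in all genes. Without the filter on dim probes, 6 autophagy genes fell and 5 rose of 28, and 12 lysosome genes fell and none rose, where 17.9% of 23957 genes were called (9.07% higher and 8.85% lower).

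With LPS present, added salt raised most autophagy members. In HS+LPS against NS+LPS 20 of 27 rose and 3 fell, while of the lysosome genes 8 rose and 6 fell. The background was 57.6% of all genes called (26.2% higher and 31.4% lower), so the lysosome count of 14 of 21 lies near it. Medians were 0.21 for autophagy genes, 0.06 for lysosome genes and -0.043 for all genes. Gapdh and Actb, taken as reference genes, were also called higher there. Their mean scaled signals went from 522 in NS+LPS to 670 in HS+LPS for Gapdh and from 630 to 718 for Actb. The part of such a shift in the counts was not tested.

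LPS alone moved the members both ways. In NS+LPS against NS 11 autophagy genes rose and 10 fell, and 8 lysosome genes rose and 10 fell, with 63.8% of all genes called (28.6% higher and 35.2% lower). Given with added salt, LPS raised 16 autophagy and 13 lysosome genes and lowered 8 and 7. The background there, in HS+LPS against HS, was 72.3% (30.5% higher and 41.7% lower), and medians were 0.24 and 0.40 against -0.11 for all genes. The test of the salt by LPS interaction asks whether the salt difference changed with LPS. It called 16 autophagy genes and 13 lysosome genes toward a higher salt difference with LPS and 1, Gla, toward a lower one, beside 36.2% of all genes (17.4% higher and 18.8% lower). Of all interaction calls 48% were higher, or 58.2% with quantile normalization. Every member in this interaction count is listed with its value in the closing section.

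**Figure D1:**
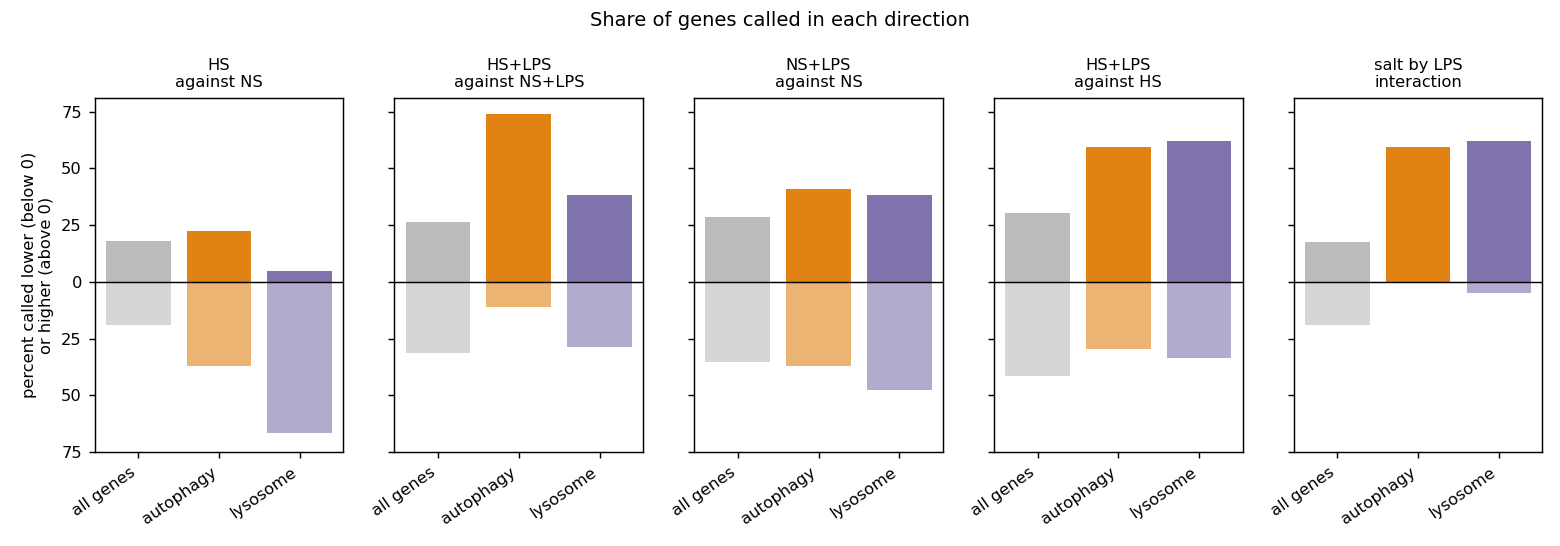
Percent of genes called higher (above 0) and lower (below 0) at an adjusted p under 0.05 in each comparison, for all 13768 genes (grey), 27 autophagy genes (orange) and 21 lysosome genes (purple). Lower calls outnumber higher ones in the lysosome genes for HS against NS, 14 to 1, and higher calls outnumber lower ones in both lists for the interaction, 16 to 0 and 13 to 1.

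Among the transcription factors, Tfeb RNA was low wherever LPS was present. Its scaled signal was 1.69, 1.7 and 1.6 on the NS arrays, 1.32, 1.32 and 1.3 in HS, 0.576, 0.565 and 0.622 in NS+LPS, and 0.566, 0.633 and 0.542 in HS+LPS. Every HS array lay under every NS array, and both LPS groups overlapped each other far below. Tfeb fell by 0.34 on the log2 scale with salt (SE 0.06, adjusted p = 0.00163) and by 1.5 with LPS (2.83-fold, SE 0.06, adjusted p = 6.64e-09), while with LPS present the salt difference was -0.02 (95% interval -0.16 to 0.12, adjusted p = 0.78).

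Tfe3 and Mitf, the close relatives of Tfeb, went up with salt. Tfe3 gave 15.3, 14.3 and 14.8 in NS, 18.8, 18 and 19.7 in HS, 11.9, 12.8 and 13.8 in NS+LPS, and 15.7, 13.7 and 15.8 in HS+LPS. HS arrays were the highest, and the lowest HS+LPS array lay within the NS+LPS range. Tfe3 rose by 0.35 with salt (SE 0.071, adjusted p = 0.00376) and by 0.23 with salt under LPS (adjusted p = 0.017). The second call ended with any of replicate 1 of NS+LPS and replicates 1 and 3 of HS+LPS left out, at 0.18 to 0.20, and the mean of its probes gave 0.36. Mitf gave 17.8, 17.1 and 17.8 in NS, 18.8, 19.3 and 21 in HS, 16.2, 15.4 and 14.6 in NS+LPS, and 22.8, 21.8 and 23.4 in HS+LPS. Its HS+LPS arrays were the highest of the 12 and its NS+LPS arrays the lowest. Mitf rose by 0.56 with salt under LPS (SE 0.054, adjusted p = 1.58e-05) and by 0.17 with salt alone (adjusted p = 0.0327), and the difference between these effects was called (0.39, SE 0.076, adjusted p = 0.00332). The rise with salt alone ended without any 1 NS array or replicate 2 or 3 of HS (0.12 to 0.18), and with the replicate block (adjusted p = 0.0521). With the mean of its probes it was 0.08 (adjusted p = 0.265).

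Of the initiation and nucleation genes all 6 rose with salt under LPS, against 1 rise and 1 fall of 6 with salt alone. Of all genes 26.2% were higher with salt under LPS, and 18.2% higher and 18.9% lower with salt alone. Without the filter on dim probes the rises of Atg13 and Becn1 were not called (adjusted p = 0.0867 and 0.0603). Ulk1, the kinase that starts autophagosome formation, gave 7.76, 7.34 and 7.89 in NS, 7.45, 7.95 and 8.24 in HS, 4.56, 4.55 and 4.91 in NS+LPS, and 10.1, 7.2 and 8.77 in HS+LPS. LPS alone set all 3 arrays below every other array, whereas HS+LPS overlapped NS and HS. Ulk1 fell with LPS by 0.71 (1.64-fold, SE 0.10, adjusted p = 0.000129), rose with salt under LPS by 0.88 (1.85-fold, SE 0.10, adjusted p = 5.89e-05) and had a salt difference of 0.04 without LPS (95% interval -0.20 to 0.28). Ulk1's change in salt difference was 0.84 (SE 0.15, adjusted p = 0.00178).

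Uvrag, a Beclin 1 partner that acts in autophagosome and endosome maturation, rose with salt in both settings. Its scaled signal was 18.7, 20 and 19.9 in NS, 29.3, 27.8 and 31.5 in HS, 14.1, 13.8 and 15.5 in NS+LPS, and 24.4, 23 and 24.4 in HS+LPS. No pair of the 4 groups overlapped, and HS was the highest. The salt rise was 0.60 without LPS (1.51-fold, SE 0.06, adjusted p = 4.87e-05) and 0.73 with it (1.65-fold, adjusted p = 5.82e-06), and these did not differ by the interaction test (0.13, 95% interval -0.07 to 0.33, adjusted p = 0.262). LPS lowered Uvrag by 0.43 on the log2 scale without added salt (a difference of -0.43, adjusted p = 9.69e-05).

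Salt moved Atg13, Becn1 and Atg14 by less than it moved Ulk1 or Uvrag under LPS. Atg13, the scaffold of the ULK complex, fell with salt alone (-0.14) and rose with salt under LPS (0.12). Both calls were small and ended in part, the first without NS replicate 1 or HS replicate 2 or 3 (-0.14 to -0.10) and the second without replicate 2 or 3 of NS+LPS or any HS+LPS array (0.10 to 0.12). With normexp background correction the second was 0.05 (adjusted p = 0.327). Becn1, which codes for Beclin 1, rose with salt under LPS by 0.21, a call lost without replicate 2 or 3 of NS+LPS or the first of HS+LPS (0.18 to 0.20). Atg14, which directs the Beclin 1 complex to autophagosomes, fell with LPS by 0.36 on the log2 scale (a difference of -0.36) and rose with salt under LPS by 0.29. LPS raised Atg13 by 0.40 without added salt and 0.66 with it.

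Ulk2, the second ULK kinase, shows how far a direction can rest on the probe. Both of its probes were well above background, and their sequences follow, 5′ to 3′, with mm9 positions on the minus strand at chr11:61591022-61591081 for the brighter and chr11:61589841-61589900 for the dimmer. The files do not say in which exon or UTR of this build a probe lies.
Ulk2, brighter probe: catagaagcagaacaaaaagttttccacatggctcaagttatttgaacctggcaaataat
Ulk2, dimmer probe: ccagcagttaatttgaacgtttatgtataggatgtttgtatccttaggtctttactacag
The brighter probe gave 1.27, 1.18 and 1.17 in NS, 1.19, 1.2 and 1.12 in HS, 1.66, 1.65 and 1.57 in NS+LPS, and 2.08, 2.2 and 2.14 in HS+LPS. The dimmer gave 0.138, 0.155 and 0.149 in NS and 0.102, 0.082 and 0.103 in NS+LPS. LPS thus raised the first by 0.43 (adjusted p = 1.7e-05 over all probes) and lowered the second, with a log2 difference of -0.63 (adjusted p = 0.000667). With salt under LPS the first rose by 0.40, and the second stood at 0.18 (adjusted p = 0.193). With the mean of both probes the Ulk2 interaction was 0.29, against 0.44 for the brighter.

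The membrane supply genes held the 2 largest rises with salt under LPS, those of Wipi1 and Atg2a. Wipi1, which binds the lipid mark made by the Beclin 1 complex, gave 0.31, 0.304 and 0.314 in NS, 0.29, 0.261 and 0.354 in HS, 0.222, 0.278 and 0.251 in NS+LPS, and 0.572, 0.536 and 0.699 in HS+LPS. The 3 HS+LPS arrays stood apart from the other 9. Wipi1 was 2.40-fold higher in HS+LPS than in NS+LPS (log2 1.26, SE 0.13, adjusted p = 2.25e-05), with a salt difference of -0.05 without LPS (95% interval -0.34 to 0.25) and an interaction of 1.31 (SE 0.18, adjusted p = 0.000515). With the mean of its probes the rise was 0.70 and the interaction 0.70.

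Wipi1 has 3 probes, all on the minus strand of mm9 chromosome 11, shown because they did not move alike. The brightest lies at chr11:109435140-109435199, the second at chr11:109443686-109443745 and the dimmest at chr11:109436607-109436666.
Wipi1, brightest probe: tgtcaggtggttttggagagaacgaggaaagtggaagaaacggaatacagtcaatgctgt
Wipi1, second probe: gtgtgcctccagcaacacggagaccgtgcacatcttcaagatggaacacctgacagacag
Wipi1, dimmest probe: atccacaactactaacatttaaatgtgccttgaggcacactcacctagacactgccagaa
The second probe rose with salt under LPS by 0.86 (adjusted p = 4.28e-05 over all probes), from 0.155, 0.16 and 0.171 to 0.301, 0.26 and 0.321. The dimmest, at 0.0477 to 0.111 over all 12 arrays, had a difference of -0.02 (adjusted p = 0.961) and was well above background on only 2 of 3 NS+LPS and 1 of 3 HS+LPS arrays.

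Wipi2, which recruits the conjugation machinery to the same lipid, gave opposite LPS differences on its probes. Its brighter probe gave 1.51, 1.39 and 1.49 in NS, 1.31, 1.38 and 1.24 in HS, 3.37, 3.26 and 3.43 in NS+LPS, and 3.81, 3.92 and 4.12 in HS+LPS. Both LPS groups lay above both others. The rise was 2.29-fold without added salt (log2 1.20, SE 0.052, adjusted p = 1.24e-08) and 3.01-fold with it (1.59, adjusted p = 1.52e-09). Its other probe went down with LPS, from 2.4, 2.49 and 2.5 to 1.68, 1.78 and 1.75 (log2 -0.50, adjusted p = 3.05e-05 over all probes), so the rise of Wipi2 holds for 1 probe only, and the mean of both gave 0.35. With added salt the other probe fell as well (-0.31, adjusted p = 0.000908 over all probes), and the mean of both gave 0.64. The probes lie on the plus strand at chr5:143143197-143143256 and chr5:143144828-143144887 of mm9.
Wipi2, probe that rose: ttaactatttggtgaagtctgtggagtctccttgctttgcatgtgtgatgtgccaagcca
Wipi2, probe that fell: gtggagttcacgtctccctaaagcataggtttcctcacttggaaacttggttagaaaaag
With salt alone the first probe fell by 0.16 on the log2 scale (a difference of -0.16, adjusted p = 0.0357), a call that ended without replicate 1 or 3 of NS or 1 or 3 of HS (-0.16 to -0.12) and with the replicate block (adjusted p = 0.0674). It rose with salt under LPS by 0.24 (adjusted p = 0.00332), where the other probe stood at 0.10 (adjusted p = 0.178).

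Atg2a and Atg9a, which code for a lipid transfer protein and the lipid scramblase of the growing membrane, rose with salt in both settings. Atg2a gave 1.95, 1.72 and 1.89 in NS, 2.22, 2.25 and 2.34 in HS, 1.71, 1.79 and 1.98 in NS+LPS, and 3.56, 3.25 and 3.74 in HS+LPS. HS lay above NS, HS+LPS lay above all other arrays, and NS and NS+LPS overlapped. The rise was 0.29 with salt alone (SE 0.073, adjusted p = 0.00972) and 0.94 under LPS (1.92-fold, adjusted p = 3.57e-06), a difference of 0.65 (SE 0.10, adjusted p = 0.0011). Atg9a gave 0.959, 0.89 and 0.848 in NS, 1.26, 1.13 and 1.1 in HS, 0.736, 0.74 and 0.748 in NS+LPS, and 1.06, 0.967 and 1.07 in HS+LPS. Its salt rises were 0.37 (adjusted p = 0.00153) and 0.47 (adjusted p = 0.000173), with no call for their difference (0.10, 95% interval -0.11 to 0.32).

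**Figure D2:**
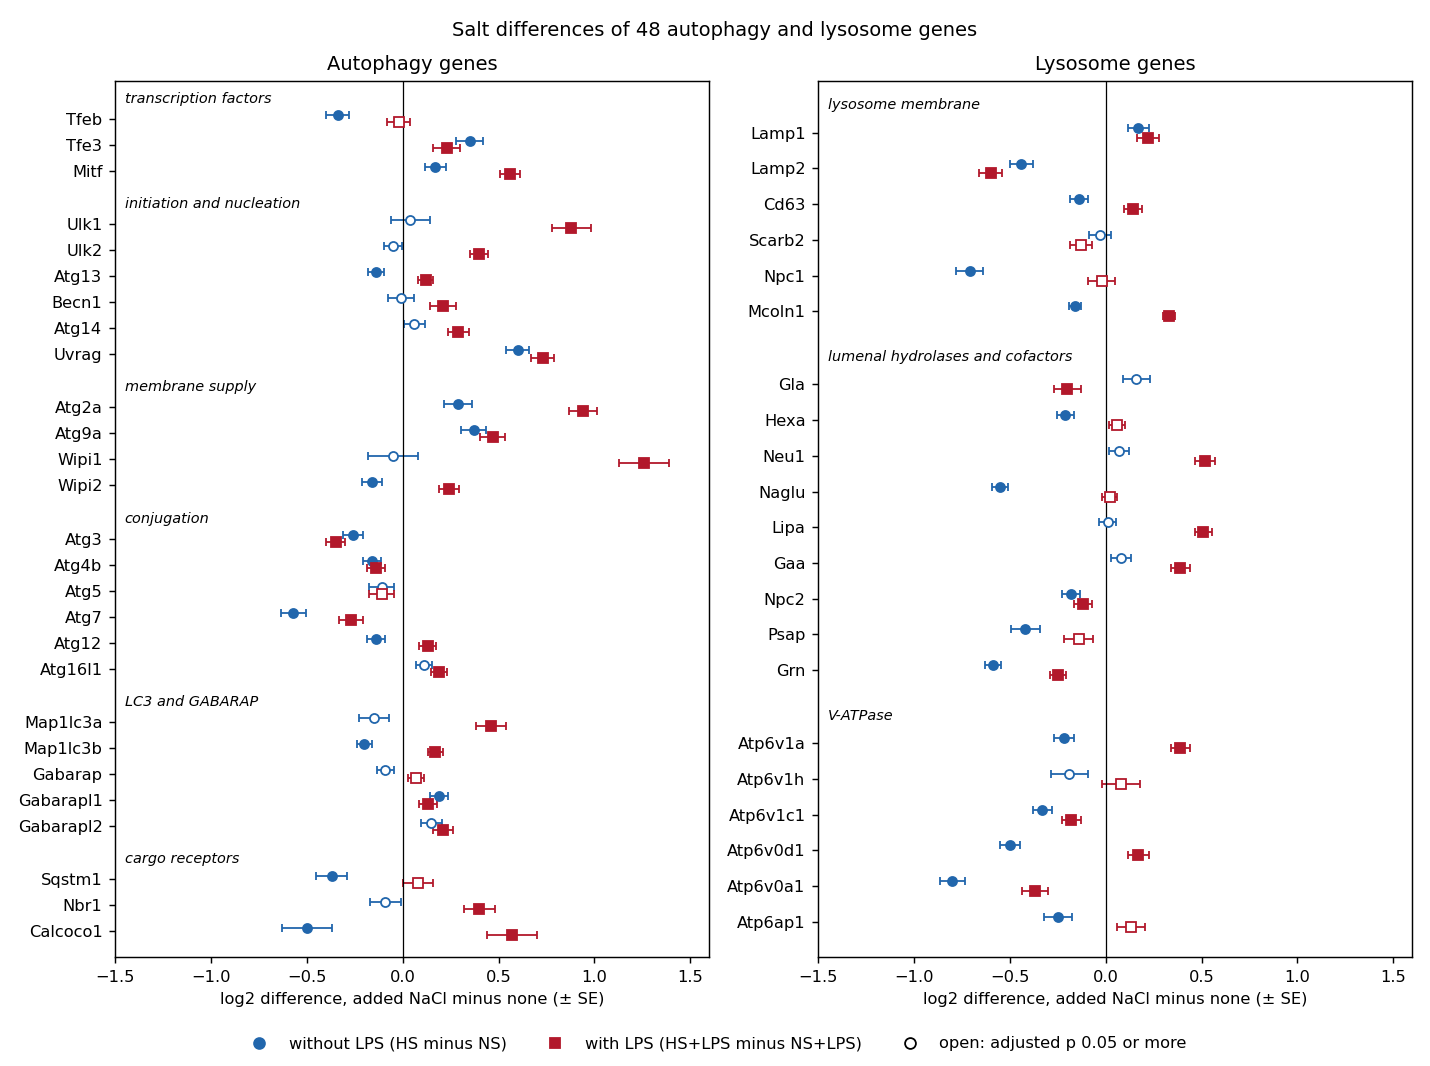
Log2 difference between arrays with and without added NaCl (± SE, 3 arrays a group) for the 48 tested members, by role, without LPS (blue circles) and with LPS (red squares). Open symbols have an adjusted p of 0.05 or more. Wipi1, Atg2a and Ulk1 lie farthest to the right with LPS, at 1.26, 0.94 and 0.88, and Atp6v0a1, Npc1 and Grn farthest to the left without it, at -0.80, -0.71 and -0.59.

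Of the 6 conjugation genes 4 fell and none rose with salt alone, while with salt under LPS 3 fell and 2 rose. The shares of all genes were 18.9% lower and 18.2% higher with salt alone, and 31.4% lower and 26.2% higher under LPS. Atg7, the activating enzyme of the system, gave 7.53, 8.01 and 7.27 in NS, 5.03, 5.35 and 4.97 in HS, 3.89, 4.32 and 4.39 in NS+LPS, and 3.75, 3.37 and 3.34 in HS+LPS. NS was the highest group and no groups overlapped. Atg7 was 1.49-fold lower with salt alone (log2 -0.57, SE 0.065, adjusted p = 0.000106), 1.20-fold lower with salt under LPS (-0.27, adjusted p = 0.0056) and 1.81-fold lower with LPS alone (-0.86, adjusted p = 9.47e-07). A second Atg7 probe fell alike with salt alone (-0.58) but stood at -0.04 with salt under LPS (adjusted p = 0.648 over all probes) and rose with LPS under added salt by 0.20, where the first fell. With the mean of both, the fall with salt under LPS was -0.15 and that with LPS under added salt -0.18.

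Atg3, which hands LC3 to the membrane lipid, fell with salt in both settings, with log2 differences of -0.26 (adjusted p = 0.0031) and -0.35 (adjusted p = 0.000242). Atg4b, the protease that primes LC3, had differences of -0.16 and -0.14, both called. The first call ended without replicate 1 or 2 of NS or 1 or 3 of HS (-0.15 to -0.14), the second with any of replicates 1 and 2 of NS+LPS and 1 and 3 of HS+LPS left out (-0.15 to -0.10). For the conjugate of Atg5, Atg12 and Atg16l1 that completes the transfer, the members split. Atg5 was called in neither salt comparison (-0.11 in both) and was 1.58-fold lower with LPS in both salt conditions (-0.66, adjusted p = 8.59e-06 and 7.61e-06). Atg16l1 rose with salt under LPS by 0.19 (adjusted p = 0.00325), or 0.12 with normexp. Atg12 fell with salt alone (-0.14) and rose with salt under LPS (0.13), calls that ended without replicate 1 or 2 of NS or 1 or 3 of HS (-0.13 to -0.12) and without replicate 2 of NS+LPS or 1 or 2 of HS+LPS (0.10 to 0.13). With the mean of its probes the second was 0.06 (adjusted p = 0.339), and the first ended with the replicate block (adjusted p = 0.0584).

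The LC3 genes parted ways under LPS. Map1lc3b, the LC3 form most used as an autophagosome marker, gave 12.1, 12.2 and 11.9 in NS, 10.7, 10.8 and 10.1 in HS, 5.95, 5.61 and 5.68 in NS+LPS, and 6.56, 6.42 and 6.44 in HS+LPS. No groups overlapped, and both LPS groups were the lowest. Map1lc3b was 2.10-fold lower with LPS (log2 -1.07, SE 0.04, adjusted p = 3.91e-09), 1.15-fold lower with salt alone (-0.20, adjusted p = 0.00344) and 1.13-fold higher with salt under LPS (0.17, adjusted p = 0.00419). The change of sign was called, with an interaction of 0.37 (SE 0.056, adjusted p = 0.000885).

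Map1lc3a, the related LC3A, gave 0.477, 0.475 and 0.429 in NS, 0.391, 0.395 and 0.466 in HS, 0.602, 0.573 and 0.621 in NS+LPS, and 0.767, 0.832 and 0.878 in HS+LPS. NS and HS overlapped, NS+LPS lay above both and HS+LPS was the highest. LPS raised it by 0.38 without added salt (1.30-fold, adjusted p = 0.00161) and by 0.99 with it (1.98-fold, SE 0.079, adjusted p = 1.17e-06), and salt under LPS by 0.46 (adjusted p = 0.000692).

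The GABARAP genes, whose products act late in autophagosome closure and fusion, shifted by less. Gabarapl1 gave 50.4, 46 and 45.7 in NS, 52.6, 52.4 and 56.8 in HS, 56.4, 57.4 and 57.1 in NS+LPS, and 62.8, 62.2 and 62.3 in HS+LPS. It was lowest in NS and highest in HS+LPS. Its salt rises were 0.19 (adjusted p = 0.0109) and 0.13 (adjusted p = 0.0354), and the second ended without any 1 of the 6 arrays compared (0.13 to 0.14), with the replicate block (adjusted p = 0.0602) and with normexp background correction (0.05). Gabarapl2 gave 29, 28 and 27.7 in NS, 29.5, 31.8 and 32.7 in HS, 36.8, 33.3 and 34.6 in NS+LPS, and 38.5, 41.4 and 41.2 in HS+LPS, in which HS+LPS was again the highest. It rose with LPS by 0.31 (adjusted p = 0.000568) and with salt under LPS by 0.21 (adjusted p = 0.00746), though not with normexp (0.14, adjusted p = 0.0559). Gabarap gave 60.9, 56.5 and 54.5 in NS, 52.8, 53.4 and 54.9 in HS, 60.5, 59.9 and 60.2 in NS+LPS, and 62.3, 63.8 and 64 in HS+LPS. It was called only for LPS with added salt (0.24, adjusted p = 0.000555), a call that ended with the mean of its probes (0.01).

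Of the 3 cargo receptors tested, Sqstm1 and Nbr1 rose with LPS, and Sqstm1 rose most of all members. Sqstm1, which codes for p62, a receptor for ubiquitin-tagged cargo, gave 18.6, 18.8 and 20.2 in NS, 13.2, 15.2 and 16.2 in HS, 63.1, 63.6 and 57.2 in NS+LPS, and 65.4, 68.6 and 60.6 in HS+LPS. HS lay below NS, and both LPS groups overlapped far above. LPS raised Sqstm1 3.19-fold without added salt (log2 1.67, SE 0.08, adjusted p = 2.51e-08) and 4.37-fold with it (2.13, adjusted p = 4.23e-09). With salt alone it fell 1.29-fold (-0.37, adjusted p = 0.00486), and with salt under LPS it stood at 0.08 (95% interval -0.10 to 0.27). A dimmer second probe rose with LPS as well (1.43 without added salt and 1.34 with it) but did not pass the test for salt alone (0.16, adjusted p = 0.526 over all probes), and the mean of both gave -0.11 for salt alone. The interaction of Sqstm1 was 0.45 (adjusted p = 0.0114), or 0.18 (adjusted p = 0.263) with that mean.

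Nbr1, a receptor of similar build, gave 0.972, 1.19 and 1.12 in NS, 0.939, 1.07 and 1.06 in HS, 2.28, 2.11 and 2.11 in NS+LPS, and 3.03, 2.7 and 2.82 in HS+LPS. NS and HS overlapped, and HS+LPS was the highest. Nbr1 rose with LPS 1.99-fold (log2 0.99, SE 0.082, adjusted p = 1.79e-06) and 2.79-fold with added salt (1.48, adjusted p = 7.36e-08). With salt under LPS it rose by 0.40 (adjusted p = 0.00226).

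Calcoco1, known in human cells as a receptor for turnover of the endoplasmic reticulum, had a dim probe. It gave 0.0996, 0.0886 and 0.0869 in NS, 0.0775, 0.0573 and 0.0607 in HS, 0.0716, 0.0964 and 0.0749 in NS+LPS, and 0.117, 0.121 and 0.119 in HS+LPS. HS arrays were below NS, and HS+LPS arrays above all others. Calcoco1 fell 1.42-fold with salt alone (-0.50, SE 0.13, adjusted p = 0.0118) and rose 1.48-fold with salt under LPS (0.57, adjusted p = 0.00383), an interaction of 1.07 (SE 0.18, adjusted p = 0.00161). With normexp background correction these were -0.12 (adjusted p = 0.193) for salt alone and 0.51 (adjusted p = 0.00168) for the interaction.

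**Figure D3:**
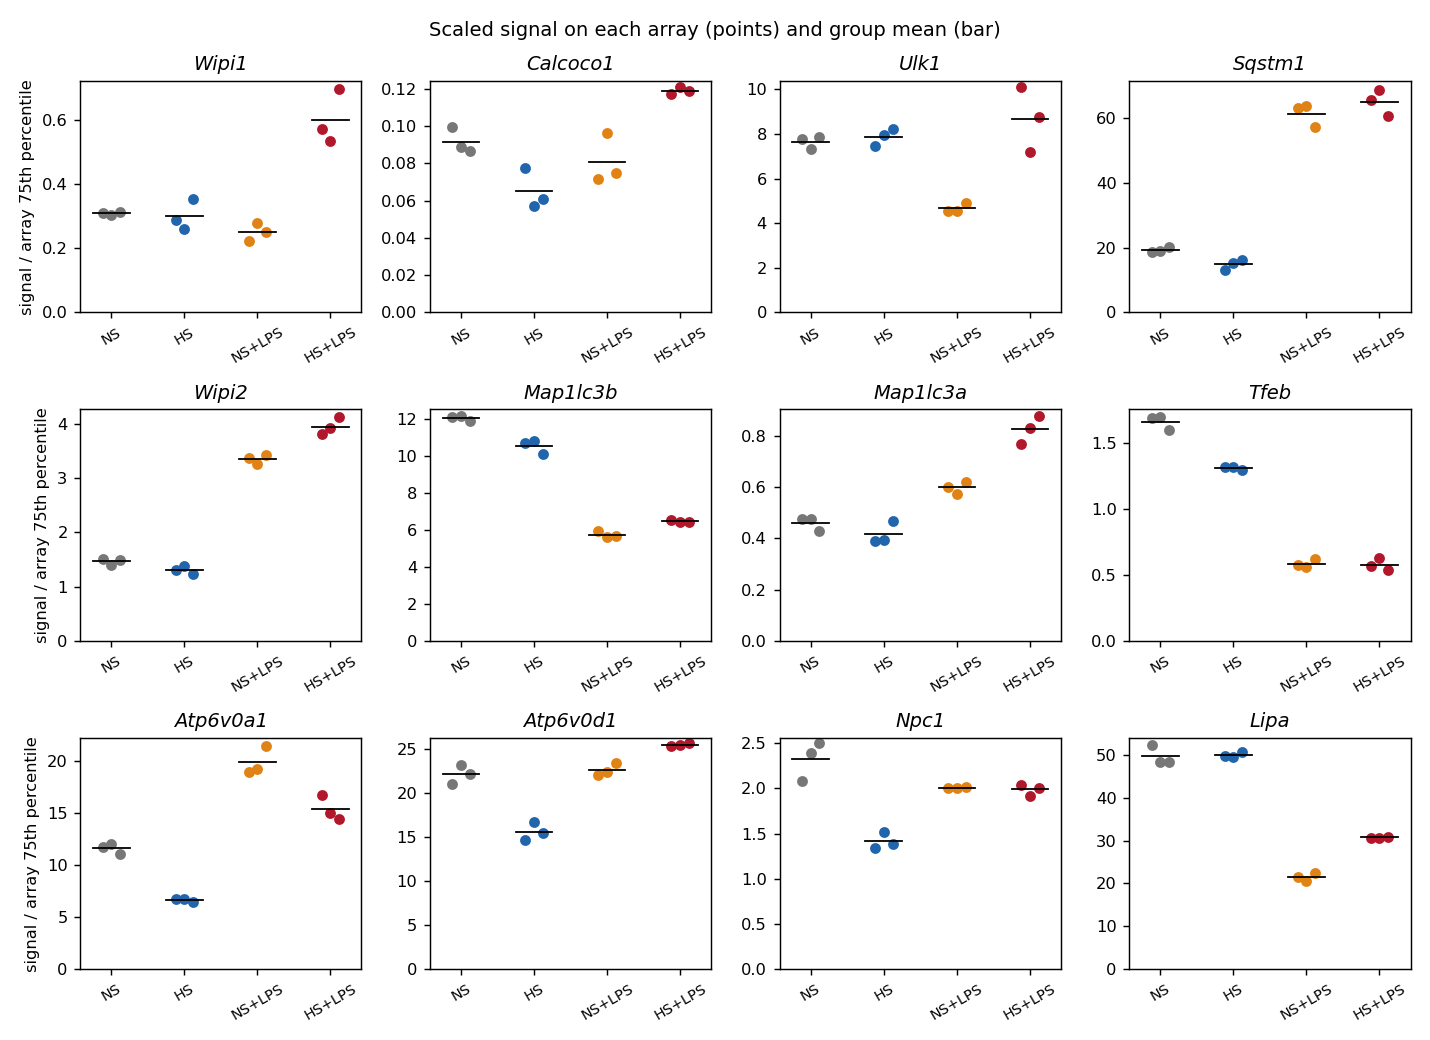
Scaled signal (linear, 1 is the array's 75th percentile) on each of the 12 arrays (points) with the group mean (bar) for 12 members, 3 arrays a group. Axes start at 0 and differ between panels. Wipi1 and Calcoco1 are highest in HS+LPS, Sqstm1 and Wipi2 are high in both LPS groups, Tfeb and Map1lc3b are low in both, and Npc1, Atp6v0a1 and Atp6v0d1 are lowest in HS.

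Of the 6 lysosome membrane genes 4 fell with salt alone, beside 18.9% of all genes. Npc1, the membrane protein that exports cholesterol from lysosomes, gave 2.08, 2.39 and 2.5 in NS, 1.34, 1.52 and 1.39 in HS, 2, 2 and 2.02 in NS+LPS, and 2.04, 1.92 and 2.01 in HS+LPS. The HS arrays were the lowest and the LPS groups overlapped each other. Npc1 was 1.64-fold lower with salt alone (log2 -0.71, SE 0.07, adjusted p = 4.22e-05) and stood at -0.02 with salt under LPS (95% interval -0.18 to 0.15), and the change was called (0.69, SE 0.099, adjusted p = 0.000615). LPS with added salt raised it by 0.49 (adjusted p = 0.000103).

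Mcoln1, the lysosomal calcium channel TRPML1, fell with salt alone (-0.16, SE 0.033, adjusted p = 0.00358) and rose with salt under LPS (0.33, adjusted p = 2.42e-05). The mean of its probes gave -0.32 and 0.13, and the second was then not called (adjusted p = 0.118). With normexp the second was 0.17. Cd63, a tetraspanin of late endosomes and lysosomes, had differences of -0.14 and 0.14, both called. The first ended without NS replicate 1 or 2, HS replicate 1 or 2, replicate 2 or 3 of NS+LPS or 1 or 3 of HS+LPS (-0.15 to -0.09) and with the replicate block (adjusted p = 0.0674). The second ended with any of replicates 2 and 3 of NS+LPS and 2 of HS+LPS left out (0.12 to 0.14) and with normexp (0.08). Lamp1, an abundant glycoprotein of the lysosome membrane, rose by 0.17 with salt alone and by 0.22 under LPS. Both calls ended with quantile normalization (0.05 and 0.10), and the first also without NS replicate 2 or 3, HS replicate 3 or NS+LPS replicate 2 (0.12 to 0.17) and with the replicate block (adjusted p = 0.0618). Scarb2, which carries an enzyme to lysosomes, was called in neither salt comparison (-0.03 and -0.13) and rose with LPS by 0.36 (adjusted p = 0.000232).

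Lamp2, which acts in chaperone-mediated autophagy and in fusion with autophagosomes, fell with salt in both settings. It gave 17.9, 18.6 and 17.6 in NS, 12.7, 14 and 13.3 in HS, 16.9, 15.6 and 15.2 in NS+LPS, and 9.89, 11.1 and 10.6 in HS+LPS. HS+LPS was the lowest group and none overlapped. The falls were 1.35-fold (log2 -0.44, SE 0.059, adjusted p = 0.000309) and 1.51-fold (-0.60, adjusted p = 1.97e-05). Lamp2 has a second, dimmer probe, and the probes disagreed on LPS. The dimmer fell with salt too, by log2 differences of -0.38 and -0.27, and gave 10.7, 10.7 and 10.4 in NS against 17.9, 16.7 and 16.9 in NS+LPS. LPS thus raised the dimmer probe by 0.69 (adjusted p = 1.05e-07 over all probes) where the brighter had a difference of -0.18 (adjusted p = 0.0202), a call that also ended without NS replicate 2 or NS+LPS replicate 2 or 3 (-0.17 to -0.15). Lamp2 RNA has several known splice forms with different ends, and which forms these probes read was not tested.

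Among the 9 lumenal hydrolases and cofactors 5 fell with salt alone and none rose, and with salt under LPS 3 rose and 3 fell. Of all genes 18.9% were lower with salt alone, and 26.2% higher and 31.4% lower with salt under LPS. Grn, the precursor of the granulins that support lysosomal enzymes, gave 96.6, 95.6 and 93.4 in NS, 64, 65.7 and 60.1 in HS, 100, 105 and 106 in NS+LPS, and 88.3, 87.2 and 85.7 in HS+LPS. HS arrays were far the lowest, and HS+LPS lay below NS+LPS. Grn fell 1.51-fold with salt alone (log2 -0.59, SE 0.042, adjusted p = 6.94e-06) and 1.19-fold under LPS (-0.25, adjusted p = 0.000621). These falls differed by 0.34 (SE 0.06, adjusted p = 0.00202).

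Naglu, which degrades heparan sulfate, gave 13.2, 14.3 and 13.7 in NS, 9.49, 9.57 and 9.06 in HS, 7.66, 7.64 and 7.94 in NS+LPS, and 7.8, 7.81 and 7.93 in HS+LPS. NS was the highest and the LPS groups overlapped. Naglu fell 1.46-fold with salt (-0.55, SE 0.041, adjusted p = 7.97e-06) and 1.77-fold with LPS (-0.82, adjusted p = 3.29e-08). Salt under LPS gave 0.02 (95% interval -0.08 to 0.11), and the interaction was 0.57 (adjusted p = 8.53e-05). Psap, the precursor of the saposins that help degrade sphingolipids, gave 64.7, 67.8 and 68.2 in NS, 48.6, 50.9 and 50.2 in HS, 36.9, 38.2 and 37.7 in NS+LPS, and 35.4, 37.8 and 29.7 in HS+LPS. It followed the same order, with falls of 1.34-fold with salt (-0.42, adjusted p = 0.00158) and 1.78-fold with LPS (-0.83, adjusted p = 3.44e-06), but its interaction was not called (0.28, adjusted p = 0.0602).

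Lipa, the acid lipase that frees cholesterol and fatty acids, was the lysosome member that fell most with LPS. It gave 52.3, 48.4 and 48.3 in NS, 49.7, 49.4 and 50.6 in HS, 21.6, 20.6 and 22.4 in NS+LPS, and 30.7, 30.7 and 30.9 in HS+LPS. NS and HS overlapped, and HS+LPS lay between them and NS+LPS. Lipa fell 2.3-fold with LPS (log2 -1.20, SE 0.044, adjusted p = 3.24e-09) and rose 1.43-fold with salt under LPS (0.51, adjusted p = 6.93e-06). Its salt difference was 0.01 without LPS (95% interval -0.09 to 0.11), an interaction of 0.50 (adjusted p = 0.000258).

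Neu1, the lysosomal sialidase, gave 33, 33.6 and 32.3 in NS, 35.3, 32.8 and 35.9 in HS, 41.8, 43.6 and 46.5 in NS+LPS, and 65.8, 62.3 and 61.3 in HS+LPS. HS+LPS stood above every other array. Neu1 rose 1.33-fold with LPS (0.41, adjusted p = 4.49e-05) and a further 1.44-fold with salt on top (0.52, SE 0.052, adjusted p = 2.02e-05), against a salt difference of 0.07 without LPS (adjusted p = 0.317).

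Npc2, the lumenal partner that hands cholesterol to Npc1, gave 39.8, 38.4 and 37.4 in NS, 33, 35 and 34.1 in HS, 85.5, 78.6 and 80.6 in NS+LPS, and 72, 76.5 and 76 in HS+LPS. Both LPS groups were high, with NS+LPS the higher. Npc2 rose 2.12-fold with LPS (log2 1.08, SE 0.046, adjusted p = 1.08e-08) and fell 1.13-fold with salt alone (-0.18, adjusted p = 0.0129). Its small fall with salt under LPS (-0.12, adjusted p = 0.0421) ended without NS replicate 2, HS replicate 3, replicate 1 or 3 of NS+LPS or any HS+LPS array (-0.14 to -0.09). It also ended with quantile normalization (-0.09) and with the replicate block (adjusted p = 0.0757). Npc1 and Npc2, which work in sequence, thus had LPS differences of opposite sign without added salt, Npc1 at -0.21 (adjusted p = 0.0252). That call of Npc1 ended without NS replicate 2 or 3 or any NS+LPS array (-0.21 to -0.15).

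The remaining hydrolases were Hexa, Gaa and Gla. Hexa, a subunit of the ganglioside-degrading hexosaminidase, fell with salt by 0.21 on the log2 scale (a difference of -0.21, adjusted p = 0.00327) and 1.76-fold with LPS (-0.81). Gaa, which degrades glycogen, rose with salt under LPS by 0.39 (adjusted p = 0.00012) from a level that LPS had lowered (-0.23). Gla, which removes galactose from glycolipids, was the only member whose interaction was negative and called (-0.36, SE 0.098, adjusted p = 0.0178). Its salt difference was 0.16 without LPS (adjusted p = 0.0976) and -0.20 with it (adjusted p = 0.0334), and the second ended without any 1 of the 6 arrays compared (-0.21 to -0.19) and with the replicate block (adjusted p = 0.0531).

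The V-ATPase genes fell with salt alone in 5 of 6 and were split with salt under LPS, 2 higher and 2 lower. The shares of all genes were 18.9% lower with salt alone, and 26.2% higher and 31.4% lower under LPS. Atp6v0a1, which anchors the pump in the membrane, gave 11.8, 12.1 and 11.1 in NS, 6.81, 6.79 and 6.46 in HS, 19, 19.3 and 21.5 in NS+LPS, and 16.8, 15 and 14.5 in HS+LPS. HS was the lowest and NS+LPS the highest, with no overlap. Atp6v0a1 fell 1.75-fold with salt alone (log2 -0.80, SE 0.067, adjusted p = 1.53e-05), the largest fall among the members, and 1.29-fold under LPS (-0.37, adjusted p = 0.00101). LPS raised it 1.70-fold without added salt and 2.31-fold with it (0.77 and 1.21). A much dimmer probe of Atp6v0a1, well above background on 1 of 3 HS and 1 of 3 HS+LPS arrays, had salt differences of -0.67 and -0.87. With the mean of both probes salt under LPS gave -0.62, LPS under added salt gave 0.74, and the interaction went from 0.44 (adjusted p = 0.00577) to 0.12 (adjusted p = 0.609).

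Atp6v0d1, a subunit of the same membrane sector, gave 21, 23.2 and 22.2 in NS, 14.7, 16.7 and 15.5 in HS, 22.1, 22.4 and 23.4 in NS+LPS, and 25.3, 25.5 and 25.7 in HS+LPS. HS stood far below and HS+LPS above all others, while NS and NS+LPS overlapped. It fell 1.42-fold with salt alone (-0.50, SE 0.054, adjusted p = 7.31e-05) and rose 1.13-fold under LPS (0.17, adjusted p = 0.0183), an interaction of 0.68 (SE 0.076, adjusted p = 0.000156). The rise under LPS ended without NS+LPS replicate 1 or 2 (0.16 to 0.17) and with normexp (0.13).

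Atp6v1a, the catalytic subunit that splits ATP, behaved likewise, with 43.2, 44.9 and 45.7 in NS, 36.6, 39.5 and 38.9 in HS, 43.8, 39.6 and 43.7 in NS+LPS, and 53.8, 55.5 and 57.8 in HS+LPS. HS+LPS was again above every other array. The salt differences were -0.22 (SE 0.052, adjusted p = 0.00844) and 0.39 (1.31-fold, adjusted p = 0.000137), an interaction of 0.61 (SE 0.074, adjusted p = 0.000236). A second, dimmer probe moved less, and its fall with salt alone was not called (-0.13, adjusted p = 0.127 over all probes). Its rise with salt under LPS was 0.19 (adjusted p = 0.0228) and its interaction 0.32 (adjusted p = 0.0171).

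Atp6v1h, the regulatory subunit, gave 2.7, 3.23 and 3.39 in NS, 2.52, 2.75 and 2.86 in HS, 4.87, 4.23 and 4.03 in NS+LPS, and 4.32, 4.71 and 4.77 in HS+LPS. Groups with LPS lay above those without, and salt made no called difference (-0.19 and 0.08). LPS raised it by 0.50 (adjusted p = 0.00112) and by 0.76 with added salt (adjusted p = 4.3e-05). Atp6v1c1, part of the stalk between the sectors, fell in both salt comparisons (-0.33, adjusted p = 0.000529, and -0.18, adjusted p = 0.00877) and with LPS (-0.49). With normexp the second was -0.28. Atp6ap1, an accessory subunit, fell with salt alone (-0.25, adjusted p = 0.0237), a call that ended without replicate 2 or 3 of NS or 1 or 3 of HS (-0.26 to -0.19). Its second probe gave -0.29 and was not called (adjusted p = 0.0665 over all probes).

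**Figure D4:**
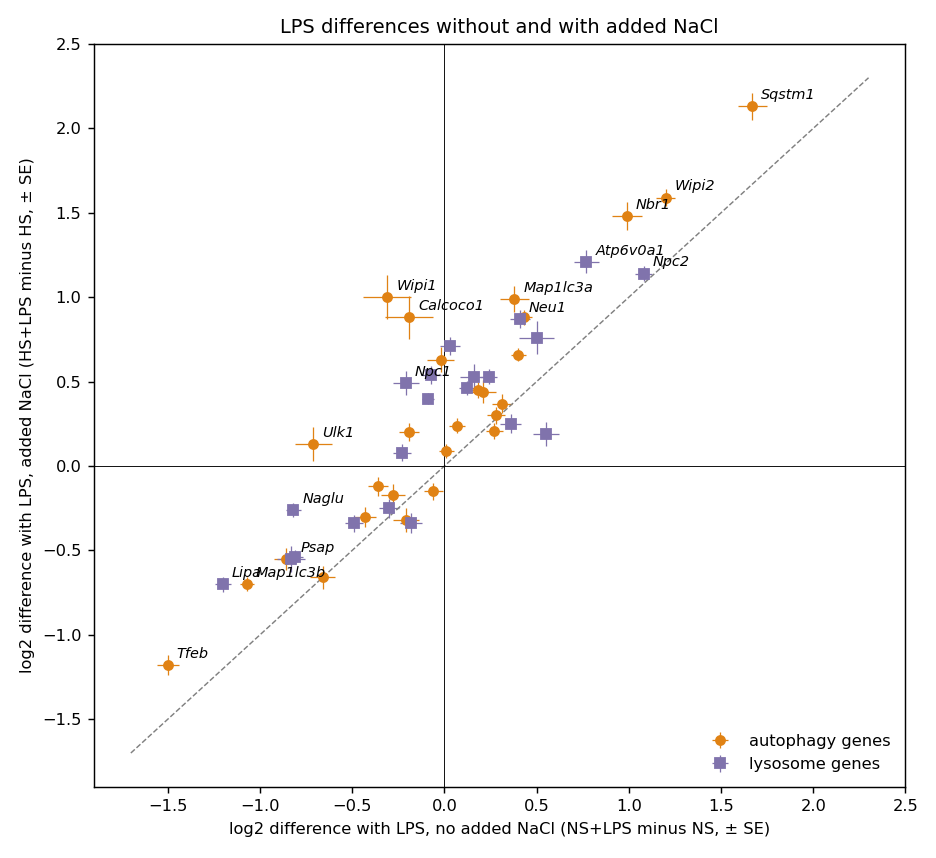
Log2 difference with LPS in cells without added NaCl (horizontal, NS+LPS minus NS) and with it (vertical, HS+LPS minus HS), each ± SE over 3 arrays a group, for the 27 autophagy (orange circles) and 21 lysosome genes (purple squares). The dashed line marks equal differences. Sqstm1, at 1.67 and 2.13, lies at the upper right, Tfeb, at -1.5 and -1.18, at the lower left, and Wipi1, Calcoco1, Npc1 and Ulk1 well above the line.

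Read across both salt comparisons, which share no arrays, 6 autophagy genes rose in each, Atg2a, Atg9a, Gabarapl1, Mitf, Tfe3 and Uvrag. Another 5 fell with salt alone and rose with salt under LPS, Atg12, Atg13, Calcoco1, Map1lc3b and Wipi2. Of these 5 only Map1lc3b kept both calls under every alternative. A further 9 rose only where LPS was present, in the sense that the rise without LPS was not called. Of these 9, the interaction was called for 6, Atg14, Map1lc3a, Nbr1, Ulk1, Ulk2 and Wipi1, and not for Atg16l1, Becn1 and Gabarapl2. The remaining autophagy genes were Tfeb and Sqstm1, which fell with salt alone, Atg3, Atg4b and Atg7, which fell in each, and Atg5 and Gabarap, called in neither. The interaction call of Atg14 (0.24) ended without any HS or HS+LPS array or without NS+LPS replicate 1 or 2 (0.20 to 0.25) and with the replicate block (adjusted p = 0.0526). In the lysosome genes 5 fell in each comparison, Atp6v0a1, Atp6v1c1, Grn, Lamp2 and Npc2. Another 4 fell with salt alone and rose with salt under LPS, Atp6v0d1, Atp6v1a, Cd63 and Mcoln1. Of these 4 only Atp6v1a kept both calls under every alternative. A set of 5 fell with salt alone only, of which Atp6ap1, Hexa, Naglu and Npc1 had a called interaction and Psap did not. Of all genes 37% were called with salt alone and 57.6% with salt under LPS. How many of all genes share each of these patterns was not counted, so the pattern counts only describe the members.

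Both comparisons with NS as control share those arrays, so their values are given side by side and not set against each other. The NS+LPS arrays likewise enter LPS alone and salt under LPS, with opposite signs. A fall with LPS and a rise with salt under LPS, as in Ulk1, Lipa, Atg14 and Gaa, are therefore not independent results. For 2 comparisons a value could be had within a single slide. On the slide that held NS and HS in full, 6 autophagy genes rose and 7 fell and none of the lysosome genes rose and 13 fell, beside 35% of all genes called (17.1% higher and 17.9% lower). All NS and HS arrays lay on that slide, so the differences and their medians (-0.09 and -0.21) could not change. Only the estimate of the spread could, so this fit is no check on the slide. The calls that ended there were those of Atg12, Atg13, Wipi2, Cd63 and Lamp1. With the 2 NS+LPS arrays of that slide, LPS raised 11 and lowered 9 autophagy genes and raised 7 and lowered 7 lysosome genes, beside 60.4% of all genes called (26.4% higher and 33.9% lower). The calls that ended were those of Mitf (-0.15), Grn (0.11), Lamp2 (-0.15), Mcoln1 (-0.10) and Npc1 (-0.21). Grn's small rise with LPS (0.12) also ended without replicate 2 or 3 of either group (0.11 to 0.13) and with quantile normalization (0.05), and that of Becn1 (0.21) without NS replicate 1 or 2 or NS+LPS replicate 1 (0.16 to 0.21). Without NS replicate 1 or 3 or NS+LPS replicate 1 or 2 the LPS difference of Tfe3 (-0.21) was not called (-0.21 to -0.16), nor was that of Mcoln1 (-0.09) without NS replicate 1, HS replicate 2 or any NS+LPS array (-0.10 to -0.07) or with the replicate block (adjusted p = 0.0687). The mean of its probes gave -0.36 (adjusted p = 0.000812) and quantile normalization -0.14 (adjusted p = 0.00266) for Mcoln1.

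Other genes of the same pathways were listed by function. Of 38 further lysosome genes 21 fell with salt alone and 3 rose, and of 12 further V-ATPase genes 9 fell and none rose, against 18.9% of all genes lower and 18.2% higher. Without the filter on dim probes the V-ATPase falls were 5, against 8.85% of all genes. Atp6v0d2, the alternative form of Atp6v0d1, fell by 0.90 on the log2 scale (a difference of -0.90, SE 0.074, adjusted p = 1.37e-05). Of 29 further autophagy genes 9 fell and none rose, led by Tecpr1 (-0.91), which acts in autophagosome maturation. With salt under LPS the rises and falls were 11 and 8 for the lysosome list, 4 and 2 for the V-ATPase list and 14 and 2 for the autophagy list. None of these totals exceeds the 57.6% of all genes called. By direction 26.2% of all genes were higher and 31.4% lower in that comparison, whereas the calls of the autophagy list were mostly higher. There Trp53inp1, a stress-induced partner of LC3, rose by 2.33 and the mitophagy receptors Bnip3 and Bnip3l by 1.18 and 0.83. In the interaction 17 genes of the lysosome list, 5 of the V-ATPase list and 10 of the autophagy list were higher, against 17.4% of all genes, and 1, 0 and 0 were lower. Without the filter on dim probes the last 2 higher counts were 3 and 6, against 7.57% of all genes.

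Genes that set the activity of mTORC1, the kinase that holds TFEB in the cytoplasm and restrains ULK1 in fed cells, were mixed with salt and mostly lower with LPS. Of 22 tested 4 rose and 8 fell with salt alone, 6 rose and 4 fell with salt under LPS, and 3 rose and 17 fell with LPS. The shares of all genes called were 37%, 57.6% and 63.8%, the last split 28.6% higher and 35.2% lower. With LPS the median log2 difference was -0.32 in this list and -0.034 in all genes. Sesn1 and Ddit4 both code for inhibitors of mTORC1. Sesn1 gave 8.66, 8.7 and 9.01 in NS, 16.6, 15.9 and 20.5 in HS, 2.76, 2.4 and 2.59 in NS+LPS, and 11.7, 11.1 and 12.9 in HS+LPS, so that no groups overlapped. Its salt rise was 1.00 without LPS (adjusted p = 3.55e-05) and 2.20 with it (adjusted p = 1.35e-07). Ddit4 stood at 18.4 to 21.1 on the NS and HS arrays, 12.9 to 13.7 in NS+LPS and 37.6 to 44.7 in HS+LPS, a salt rise of 1.59 under LPS (SE 0.073, adjusted p = 1.77e-07). Rheb, the activator of mTORC1, fell there by 1.10 on the log2 scale (a difference of -1.10, adjusted p = 3.64e-05). Ddit4 and Rheb were not called with salt alone. Sesn2, of the same family as Sesn1, went the other way with salt alone (-0.45, adjusted p = 0.00111) and was not called with salt under LPS.

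TFEB and its relatives bind the CLEAR element, whose core TCACGTGA holds the E-box CACGTG. Each reads the same on both strands, and both were searched in RefSeq promoters of GRCm38.p6, from 250 bases before to 50 after a gene's start. Promoters were found for 42 of the members. The core was in 5 of these (11.9%), against 1.12% of 27025 genes with a promoter, and the E-box, including those within cores, in 11 (26.2%) against 8.09%. By list the core was in 4 of 18 lysosome promoters and 1 of 24 autophagy promoters. The stretches around the cores follow, 5′ to 3′ on the gene's strand with the core in capitals.
Atg3, chr16:45158731-45158790, plus strand: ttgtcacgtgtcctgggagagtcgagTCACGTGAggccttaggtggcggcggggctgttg
Atp6v0d1, chr8:105566035-105566094, minus strand: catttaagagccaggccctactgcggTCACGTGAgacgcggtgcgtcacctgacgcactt
Atp6v1a, chr16:44139358-44139417, minus strand: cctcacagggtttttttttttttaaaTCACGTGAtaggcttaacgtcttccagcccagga
Gla, chrX:134601200-134601255, minus strand: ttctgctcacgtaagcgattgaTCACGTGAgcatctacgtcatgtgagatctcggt
Mcoln1, chr8:3500447-3500506, plus strand: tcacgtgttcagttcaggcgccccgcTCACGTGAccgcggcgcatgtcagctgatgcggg
The cores start 72 (Atg3), 4 (Atp6v0d1), 132 (Atp6v1a), 228 (Gla) and 46 (Mcoln1) bases before the gene's start. These 5 genes did not share a salt pattern: Atp6v0d1, Atp6v1a and Mcoln1 fell with salt alone and rose with salt under LPS, Atg3 fell in both, and Gla had the negative interaction. A match is a description of the sequence and no evidence of binding. The list was chosen by function and the motif is that of factors that drive lysosome genes, so these shares are no result of the arrays. They were not tested.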

How the data were processed

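Total RNA of 12 samples was labelled with Cy3 and hybridised to one-colour Agilent arrays (design 028005). Spot intensities were background-subtracted by Agilent Feature Extraction 10.7.3.1 before they were deposited, per the file headers, and the processed signal was used. The same deposited files give flags, coded 0 or 1, for spots well above background, saturated or outlying. The deposited value table, of which log2 was taken, served as an alternative. Its normalization is not given in the sources used here, but its median was 28.8 on every array. With it 5392 genes were called for salt alone, against 5389 with quantile normalization, so it is hardly a separate check from that setting.

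From these files the processed signal was divided by each array's 75th percentile over non-control spots, and log2 was taken. Outlier spots were left out, spots of a probe were averaged, and probes well above background on all 3 arrays of a group were kept. The brightest probe stood for a gene. limma 3.58.1 in R 4.3.3 was fitted to 13768 genes in all 4 groups (8 residual degrees of freedom), with Benjamini-Hochberg adjustment over all genes. Adjusted p-values for single probes were taken over 18742 probes with a symbol. The scripts were tested on simulated data. The number of arrays limits the precision.

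Members, gene lists and tests were chosen with earlier results of these data known. Values on every array are given for the top 4 calls by size in each comparison, separately for autophagy and lysosome genes, the LC3 and GABARAP genes, Tfeb, Tfe3, Mitf and Sqstm1, and for some further members whose probes differed. From each wider list up to 3 called genes per comparison could be named. Settings tried besides were quantile normalization, the deposited table, normexp (offset 50) for the background, both other filters on dim probes, the mean of a gene's probes, the replicate number or the slide as a block, the shared slide alone, and each array left out. Probe positions are those of mm9 in the files. Promoters were matched by symbol. Some items are not reported here.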

Additional observations from a re-analysis of the deposited data

Results flagged for a closer look

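For 30 members the salt difference with LPS differed from that without LPS by the interaction test in limma. The values that follow are log2 differences between these effects, positive where salt shifted the gene more upward with LPS. HS+LPS lay on its own slide and scan day in all of them, which cannot be told apart from the treatment. The membrane supply, initiation and cargo genes included Wipi1 (1.31, or 0.7 with the mean of its probes), Calcoco1 (1.07, or 0.51 with normexp), Ulk1 (0.84), Atg2a (0.65), Nbr1 (0.49), Sqstm1 (0.45, or 0.18 and not called with that mean), Ulk2 (0.44, or 0.29 with that mean), Wipi2 (0.39), Atg13 (0.26) and Atg14 (0.24). Among the transcription factors, conjugation and LC3 genes were Map1lc3a (0.61), Mitf (0.39), Map1lc3b (0.37), Tfeb (0.32), Atg7 (0.3) and Atg12 (0.27). The call of Atg7 ended without NS replicate 2, HS replicate 1 or 3, or replicate 1 of either LPS group (0.25 to 0.29). The V-ATPase genes were Atp6v0d1 (0.68), Atp6v1a (0.61), Atp6v0a1 (0.44, or 0.12 and not called with the mean of its probes) and Atp6ap1 (0.37, or 0.27 and not called with normexp). The lysosome membrane genes were Npc1 (0.69), Mcoln1 (0.49) and Cd63 (0.28). The hydrolases and cofactors were Naglu (0.57), Lipa (0.5), Neu1 (0.45), Grn (0.34), Gaa (0.32), Hexa (0.27) and, with the opposite sign, Gla (-0.36).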

How the results depend on the processing

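Counted over both directions, the calls of autophagy, lysosome and all genes stayed within 1.5 times of those reported under every alternative run. By direction, without a filter on dim probes the autophagy falls with salt alone went from 10 to 6 and the LPS rises over all genes from 3944 to 5997. The 1 lysosome rise with salt alone, Lamp1, was lost under 10 of 21 alternatives, 4 of them a single array left out. Over all alternatives 21 of 31 calls for salt alone held, 24 of 37 for salt under LPS, 31 of 39 for LPS, 38 of 44 for LPS with added salt and 25 of 30 for the interaction. Signs turned only with the mean of a gene's probes, which combines probes that moved apart: with LPS alone Ulk2 gave -0.1 and Lamp2 0.26, and with LPS under added salt Lamp2 gave 0.23. With 1 array left out, 11 to 17 autophagy and 12 to 16 lysosome genes were called for salt alone, 17 to 23 and 11 to 14 for salt under LPS, and 14 to 17 and 14 to 15 for the interaction. Without a filter on dim probes 25 of 240 calls or non-calls of members turned from called to not called, and LPS calls over all genes were 56.5% higher, against 44.9%. With normexp the lysosome genes under salt and LPS split 6 higher and 8 lower, with a median of 0.02. As a block, the replicate number left 13, 22, 22, 24 and 15 autophagy and 13, 12, 17, 20 and 14 lysosome calls in the 5 comparisons. Same-numbered samples did not deviate together (correlations -0.2 to 0.12 over 18 pairs, against -0.15 to 0.23 over 36 other pairs), so the numbers were not taken as pairs. The slide as a random block changed no call of a member, with a correlation within slides estimated at -0.018. HS+LPS filled a slide of its own, so this fit could not tell that slide from the treatment. The effect of the later scan day of HS+LPS and of its lower signal was not tested.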
